A study of Mus musculus with 6 samples.

Results

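Cycling neutrophil precursors were defined by 3 conditions on the unique molecular identifiers (UMIs), which count the RNA molecules captured from each cell. Ngp, Camp and Ltf together had to make up at least 1% of the UMIs of a cell, Fcnb had to have at least 1 UMI, and Mki67 and Top2a together had to have at least 2. Of 32953 cells, 1852 met this rule (5.62%, Wilson 95% confidence interval 5.38 to 5.87%, which covers counting error only). The cells came from single-cell RNA sequencing of CD45+ cells, that is, cells with the leukocyte surface protein CD45, sorted from digested joints of male C57BL/6 mice with antigen-induced arthritis (AIA). All mice had been immunized with methylated bovine serum albumin in complete Freund's adjuvant and challenged with the same antigen in the knee on day 21, and joints were taken on day 3 after that. The 6 samples comprised 2 of the vehicle, phosphate buffered saline, and 4 of PEPITEM, a peptide injected into the peritoneal cavity at 300 μg. The deposited table pooled the samples, and each barcode closed with a library number, 1 to 6. The sources used here did not link these numbers to the samples. The libraries were therefore of unknown treatment, vehicle and PEPITEM were not compared, and values are given for each library or for all libraries pooled.

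Neutrophils are made from dividing precursors, normally in bone marrow, and their granule proteins are made in waves. Promyelocytes make the contents of the azurophil granules first, such as myeloperoxidase and the serine proteases elastase, proteinase 3 and cathepsin G. Myelocytes then make the contents of the secondary granules under control of the transcription factor C/EBPε, and after the last division the cells make gelatinase and the receptors of mature neutrophils. Ngp, Camp and Ltf encode neutrophilic granule protein, the antimicrobial peptide cathelicidin and lactoferrin of the secondary granules. Fcnb encodes ficolin B, a lectin that binds sugars on microbes. Mki67 encodes the proliferation marker Ki-67, and Top2a encodes topoisomerase IIα, which untangles DNA before cells divide.

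The members carried all 6 genes by which this kind of cell is recognized (Fcnb, Chil3, Camp, Ngp, Cebpe and Top2a), of which Chil3, a chitinase-like secreted protein, and Cebpe, the gene of C/EBPε, had not been used in the rule. Chil3 was detected in 99.6% of the members and Cebpe in 97.3%. In granule-poor neutrophils, a population of 6720 cells defined below, these shares were 14.7% and 5.40%, at a median of 5612.5 UMIs per cell against 29703.5 in the members. More similar cells, also defined below, carried both genes at lower levels than the members. Chil3 stood at 3224 UMIs per 1000000 UMIs in non-cycling Fcnb-positive granule cells and 1318 in granule cells without Fcnb, against 4895 in the members. Compared with all other cells of the joint, the genes with the highest fold among those above 100 UMIs per 1000000 UMIs (CPM), with 10 CPM added to both levels, were Fcnb (19.8-fold), Camp (9.03-fold), Cebpe (8.06-fold), Chil3 (7.63-fold) and Orm1 (7.38-fold). The added 10 CPM lower the fold of less abundant genes, and so bear on this order. This ranking describes the cells that the rule picked and was not tested. Whether the cells lay in synovium or in adjacent bone was not measured.

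The genes of the granule condition lie together on mouse chromosome 9. Camp (ENSMUSG00000038357) spans chr9:109847379-109849617 on the minus strand, and Ngp (ENSMUSG00000032484) and Ltf (ENSMUSG00000032496) span chr9:110419747-110423012 and chr9:111019271-111042767 on the plus strand, in the build GRCm38. From the start of Camp to the end of Ltf are 1195 kb, with 28 other protein-coding genes between. Of these, 23 were in the table, and the highest of them in the members was Ccdc12 at 97.0 CPM, while Camp stood at 38557 CPM. Fcnb (ENSMUSG00000026835) lies at chr2:28076378-28084885, minus strand. The promoters of these 4 genes are printed because they chose the cells, and those of Ube2c and Mcm6 because these 2 cell cycle genes differed in opposite directions from dividing promyelocyte-type cells, as described below. Each runs 5′ to 3′ from 250 bases before to 50 bases after the start of the gene in RefSeq (GRCm38.p6). Capitals in the first 4 mark the letters TTNCNNAA on either strand, a form of the site that C/EBP proteins bind. Capitals in the last 2 mark CCAAT, the site of the factor NF-Y, and TTTGAA, a form of the cell cycle genes homology region, on either strand.
Camp: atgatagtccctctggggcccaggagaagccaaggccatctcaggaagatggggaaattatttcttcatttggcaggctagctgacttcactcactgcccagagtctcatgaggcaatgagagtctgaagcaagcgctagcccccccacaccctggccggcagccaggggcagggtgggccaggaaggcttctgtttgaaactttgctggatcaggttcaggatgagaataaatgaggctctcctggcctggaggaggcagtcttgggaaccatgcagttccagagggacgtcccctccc
Ngp: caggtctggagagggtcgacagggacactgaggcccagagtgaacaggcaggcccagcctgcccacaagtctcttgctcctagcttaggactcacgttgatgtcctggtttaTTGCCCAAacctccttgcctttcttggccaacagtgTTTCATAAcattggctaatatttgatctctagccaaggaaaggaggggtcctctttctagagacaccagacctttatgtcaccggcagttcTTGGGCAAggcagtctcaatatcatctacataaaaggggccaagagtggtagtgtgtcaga
Ltf: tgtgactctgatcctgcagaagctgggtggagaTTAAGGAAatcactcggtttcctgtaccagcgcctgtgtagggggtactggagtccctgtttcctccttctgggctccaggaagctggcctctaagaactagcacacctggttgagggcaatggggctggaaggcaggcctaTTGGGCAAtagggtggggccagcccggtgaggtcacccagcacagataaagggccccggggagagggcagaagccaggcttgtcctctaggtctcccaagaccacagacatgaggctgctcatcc
Fcnb: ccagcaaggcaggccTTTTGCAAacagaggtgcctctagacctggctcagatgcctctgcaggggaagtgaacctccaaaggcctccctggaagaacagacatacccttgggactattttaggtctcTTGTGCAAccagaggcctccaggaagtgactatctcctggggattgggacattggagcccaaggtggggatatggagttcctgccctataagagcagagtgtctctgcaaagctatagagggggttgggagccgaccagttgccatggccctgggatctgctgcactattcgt
Ube2c: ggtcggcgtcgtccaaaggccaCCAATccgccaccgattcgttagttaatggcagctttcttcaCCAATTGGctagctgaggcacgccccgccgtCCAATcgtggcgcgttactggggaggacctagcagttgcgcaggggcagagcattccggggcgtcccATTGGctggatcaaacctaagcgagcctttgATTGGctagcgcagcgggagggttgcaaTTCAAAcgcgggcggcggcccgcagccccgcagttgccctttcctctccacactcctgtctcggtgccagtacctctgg
Mcm6: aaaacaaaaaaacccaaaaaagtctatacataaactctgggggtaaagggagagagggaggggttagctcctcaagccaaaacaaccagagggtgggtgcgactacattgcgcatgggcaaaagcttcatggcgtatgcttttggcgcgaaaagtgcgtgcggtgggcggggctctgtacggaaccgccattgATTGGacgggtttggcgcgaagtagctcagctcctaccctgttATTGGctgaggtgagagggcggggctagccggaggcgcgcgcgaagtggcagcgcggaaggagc

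These windows lie at chr9:109849407-109849706 (Camp, minus strand), chr9:110419558-110419857 (Ngp, plus), chr9:111019042-111019341 (Ltf, plus), chr2:28084829-28085128 (Fcnb, minus), chr2:164769679-164769978 (Ube2c, plus) and chr1:128359656-128359955 (Mcm6, minus). Ngp held 3 matches to TTNCNNAA, at -138, -102 and -11 from the start, Ltf held 2 at -217 and -75, and Fcnb held 2 at -235 and -123. The Camp window held no match. Of 32851 promoters of this length, 40.7% held TTNCNNAA at least once, as did 10 of the 13 promoters matched for the secondary granule genes, Fcnb and Chil3 (76.9%), while Hp and Orm1 were not matched. Ube2c held 6 matches to CCAAT, 2 of which overlap on opposite strands, and a TTTGAA match at -29, whereas Mcm6 held 2 matches to CCAAT and none to TTTGAA. Among 29 promoters of genes of the G2 phase and mitosis, 82.8% held CCAAT and 72.4% held TTTGAA, compared with 62.5% and 12.5% of 24 promoters of genes of DNA replication and 37.4% and 17.9% of all promoters. A match is a run of letters and not a site shown to be bound.

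The share of these precursors differed between libraries (the plot of shares by library). Library 1 held 77 members among 3345 cells (2.30%), library 2 held 263 among 5809 (4.53%) and library 3 held 39 among 2919 (1.34%). Library 4 held 141 among 3996 (3.53%), library 5 held 730 among 9345 (7.81%) and library 6 held 602 among 7539 (7.99%). Libraries 5 and 6 were thus highest and library 3 lowest, with Wilson 95% intervals of 7.28 to 8.37%, 7.39 to 8.62% and 0.979 to 1.82%. Because treatments were not linked to numbers, no difference between libraries can be assigned to PEPITEM. The members were large in RNA content, with a median of 29703.5 UMIs (928 to 102310) and 4324.5 genes per cell. They made up 12.5% of all UMIs in the table. Of the 32953 barcode sequences, 276 cells (0.838%) shared theirs with a cell of another library, including 19 members.

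**Figure D1:**
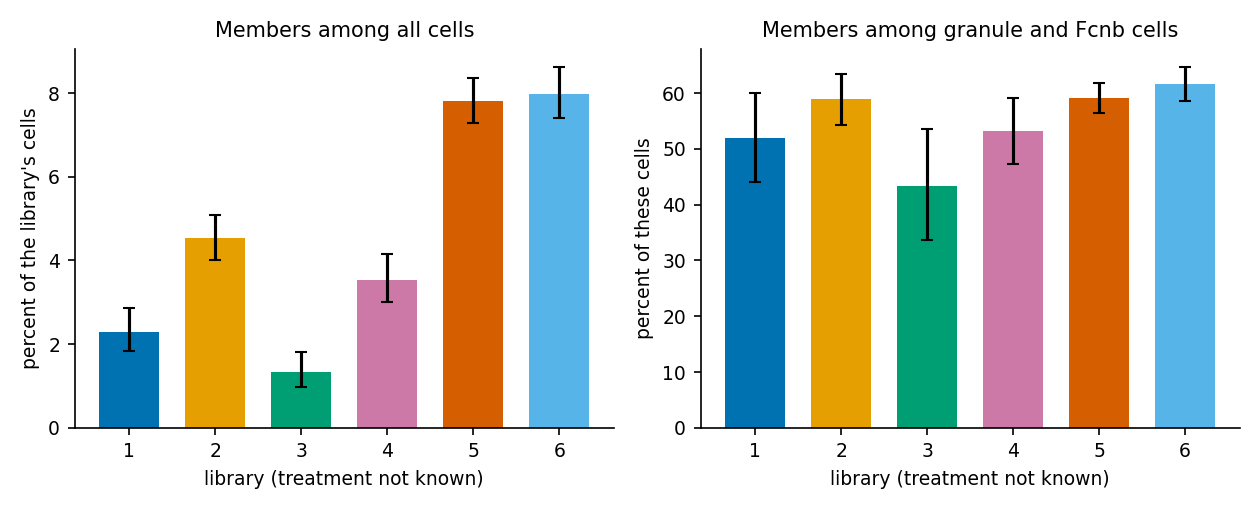
Share of cells that met the rule in each of the 6 libraries (y axis, percent of cells, with Wilson 95% confidence intervals). Which libraries had PEPITEM is not known. Libraries 5 and 6 stand near 8% and library 3 at 1.34%.

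Over all libraries, most cells with abundant granule transcripts and Fcnb met the cycling condition. Of 3160 cells that met the granule and Fcnb conditions, 1852 (58.6%, interval 56.9 to 60.3%) had at least 2 UMIs of Mki67 and Top2a, 218 had 1 and 1090 had 0. The share was 52.0%, 59.0%, 43.3%, 53.2%, 59.2% and 61.6% in libraries 1 to 6, so it was lowest in library 3 and varied less than the share of all cells. After each cell was thinned to 5000 UMIs, 53.8% of 2459 such cells met it, with 32.8% in library 3, 46.7% in library 4 and 51.6 to 56.9% in the others. The members made up 29.7% of the 6232 cells with at least 2 UMIs of Mki67 and Top2a in the joint, and 26.8% of the 6909 cells that met the granule condition.

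Most members lay well inside the thresholds. Just inside the cycling condition were 80 members with 2 UMIs of Mki67 and Top2a, against 218 cells just outside with 1 UMI, and the median granule share was 8.20% and 8.50% of UMIs in these. Just inside the Fcnb condition were 74 members with 1 UMI, against 149 cells with 0 that met the other conditions. In all, 43 members had a granule share between 1 and 2%, and 24 cells that met the other conditions had between 0.5 and 1%. The median member had a granule share of 8.46%, 24 UMIs of Fcnb and 29 UMIs of Mki67 and Top2a.

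The RNA of the precursors was dominated by a few transcripts. S100a9 and S100a8, whose proteins together form calprotectin, stood at 136019 CPM (101138 to 153584 over libraries) and 128697 CPM (98792 to 152125), and together made up 26.5% of the UMIs. The 10 most abundant genes made up 38.8%, with Camp, Ngp, the actin-binding Tmsb4x, Lcn2 (the iron-binding lipocalin 2) and Lyz2 (lysozyme) next in order. The protocol counts one 3′ end per molecule, so levels were not divided by transcript length. Camp stood at 35507, 35632, 30886, 42561, 39977 and 38422 CPM in libraries 1 to 6, and Ngp at 32857, 32528, 26018, 38815, 33015 and 32154 CPM. Both were lowest in library 3 and highest in library 4. Fcnb stood at 1145, 810, 1130, 1208, 984 and 1136 CPM, and library 2 was the lowest. Chil3, which the rule did not use, stood at 4639, 4620, 3436, 5667, 4489 and 5488 CPM. Cebpe stood at 232, 196, 177, 376, 342 and 358 CPM, so that libraries 4, 5 and 6 lay above libraries 1, 2 and 3. Libraries 1, 2 and 3 also had the largest shares of members with markers of other cell types. UMIs of at least 2 markers of B cells, T cells, macrophages, erythroid cells, fibroblasts or megakaryocytes were found in 15.6%, 21.7% and 38.5% of their members, compared with 2.13%, 6.03% and 4.98% in libraries 4, 5 and 6. The part of these members in the differences between libraries was not tested.

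To place the precursors, 4 other populations were set by rules of the same kind. Cycling promyelocyte-type cells (578 cells) had at least 0.5% of UMIs from Mpo, Elane, Prtn3 and Ctsg, under 1% from Ngp, Camp and Ltf, and at least 2 UMIs of Mki67 and Top2a. Non-cycling Fcnb-positive granule cells (1090 cells) met the granule and Fcnb conditions with 0 UMIs of Mki67 and Top2a. Granule cells without Fcnb (3379 cells) met the granule condition with 0 UMIs of Fcnb, Mki67 and Top2a. Granule-poor neutrophils (6720 cells) had at least 2% of UMIs from S100a8 and S100a9, under 1% from the 3 granule genes, none from Fcnb, Mki67 and Top2a, and at least 1 UMI of Ly6g, Csf3r or Retnlg. These are ranges of transcript levels, and no cell was followed from one to the next.

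Elane and Prss57 were highest in the promyelocyte-type cells, Fcnb, Chil3 and Cebpe in the precursors, and Mmp8 in the granule cells without Fcnb, in each library. Retnlg, which helped to set the granule-poor neutrophils, was highest in the granule cells without Fcnb in libraries 1, 2 and 3 and in the granule-poor neutrophils in libraries 4, 5 and 6. Elane, which encodes neutrophil elastase, stood at 7681 CPM in promyelocyte-type cells and 1293 in the precursors, then at 3.1, 0.6 and 2.5 CPM in the other populations in the order given. Prss57, the gene of the azurophil protease NSP4, ran from 231.5 to 58.4, 5.9, 3.3 and 2.8 CPM in the same order. Cebpe ran from 125 to 315, 158, 71.7 and 7.3 CPM, and Chil3 from 215 to 4895, 3224, 1318 and 104 CPM, so both peaked in the precursors in each library. Lcn2 ran from 84.8 to 10490, 13917, 10365 and 1767 CPM and was highest in the non-cycling Fcnb-positive cells. Mmp8, the collagenase of secondary granules, ran from 23.8 to 292, 722, 2121 and 912 CPM. Retnlg, a resistin-like protein of blood neutrophils, ran from 188 to 2799, 5897, 14551 and 13752 CPM. The depth of these populations also differed, with median UMIs of 36779.5, 29703.5, 17448, 10678 and 5612.5 per cell.

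**Figure D2:**
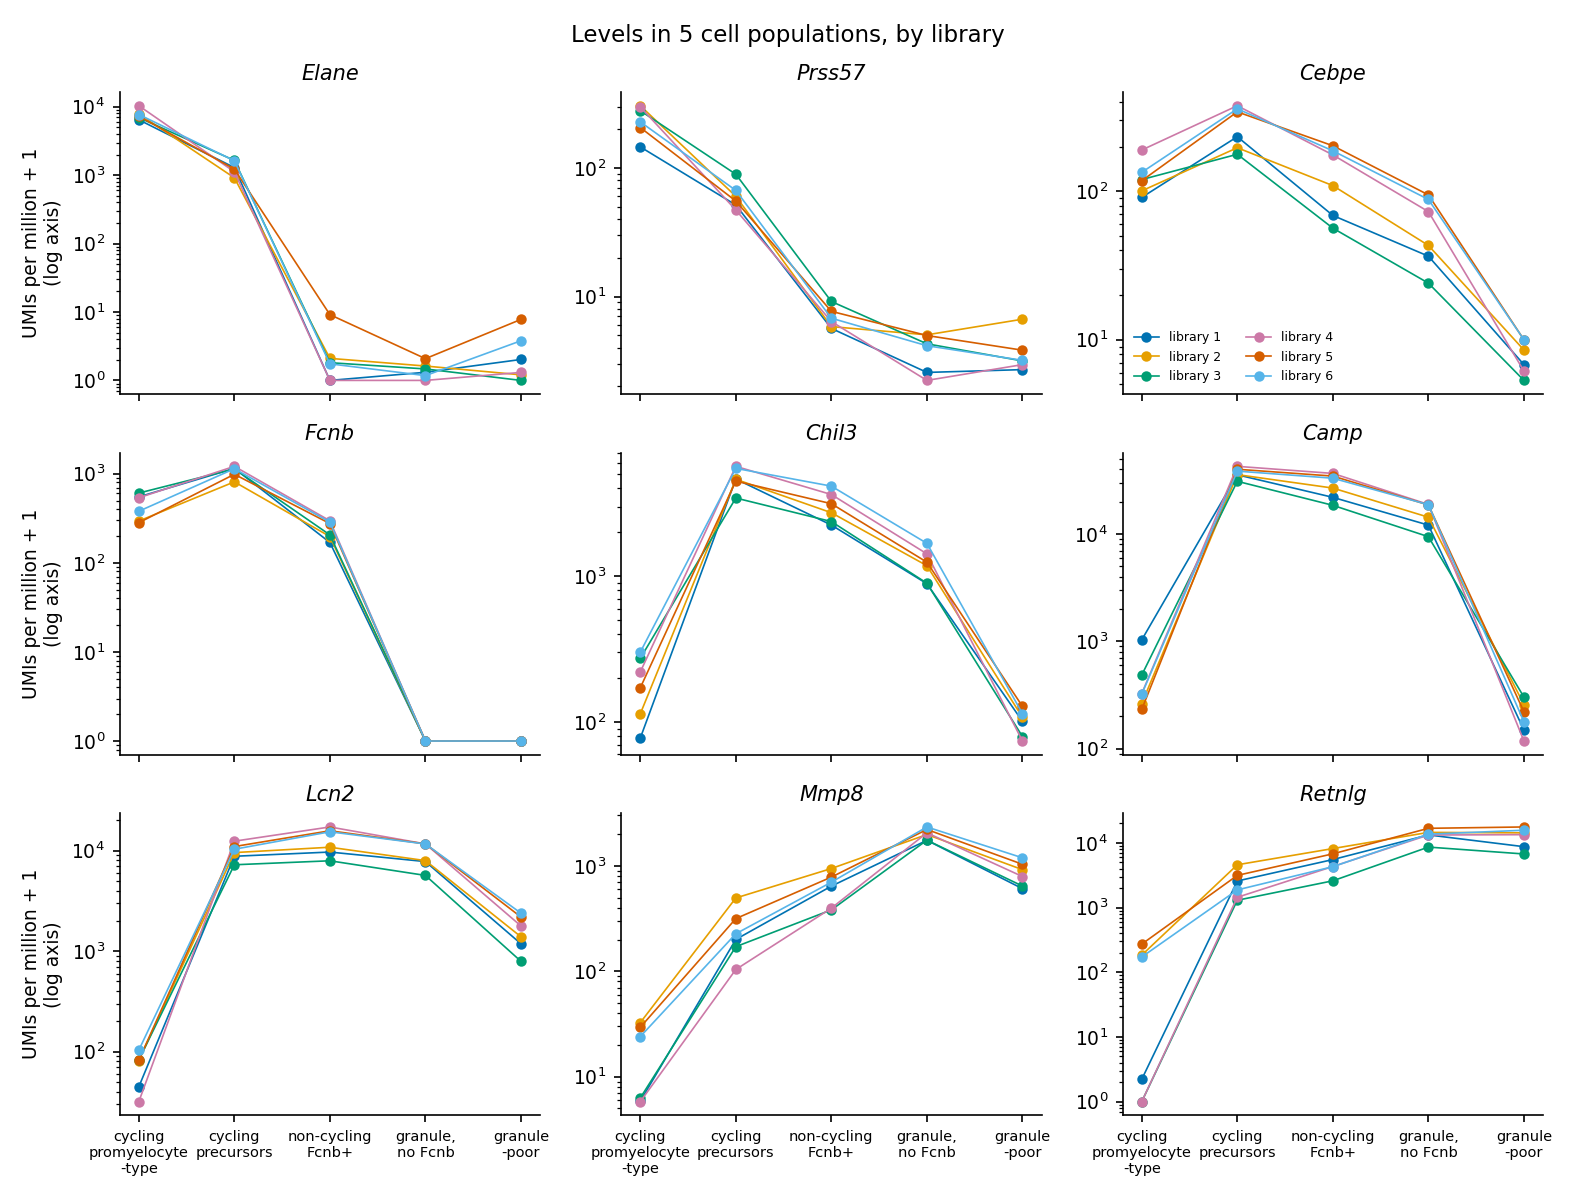
Level of 9 genes (y axis, CPM plus 1, log scale) in 5 populations set by transcript thresholds, with a line for each of the 6 libraries. Elane and Prss57 are highest in promyelocyte-type cells, Cebpe, Fcnb and Chil3 in the cycling precursors, and Mmp8 and Retnlg in granule cells without Fcnb or granule-poor neutrophils. Elane, Fcnb, Camp and Retnlg were among the genes that set the populations.

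The first comparison asked how the precursors differed from cells with the same granule and Fcnb conditions but with no UMI of Mki67 and Top2a. The precursors had higher levels of 9 of 12 azurophil granule genes and of Cebpe, and lower levels of gelatinase granule and mature neutrophil genes. Counts were summed per library and population and tested with edgeR, with the library as a block. Of 10797 genes tested, 6357 passed an adjusted p of 0.05 (58.9%), of which 3171 were higher (29.4% of the genes tested) and 3186 lower (29.5%) in the precursors. Scaling by library size alone moved the median of all genes by 0.127 on the log2 scale and moved the share of higher genes among those called from 49.9 to 59.4%. Cell cycle genes differed by construction here and were not tested as findings, as the groups were split by Mki67 and Top2a.

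Of 12 azurophil granule genes, 9 were higher in the precursors, 2 lower (Ctsc and Srgn) and 1 did not pass the test (Gusb). The median log2 fold change of the 12 was 3.61, compared with -0.02 over all genes tested. Mpo, Elane, Prtn3, Ctsg and Cst7 were each at 0 CPM in 1 or more libraries of the non-cycling cells. They passed the filter on low counts through the precursors, so the count and the median rest partly on such genes. Prss57 stood at 50.5, 59.2, 88.3, 46.1, 54.3 and 65.8 CPM in the precursors of libraries 1 to 6, and at 4.7, 4.8, 8.2, 5.4, 6.7 and 5.8 CPM in the non-cycling cells. The ranges did not overlap, and the log2 fold change was 3.18 ± 0.13 (SE, edgeR adjusted p = 6.45e-10). Elane showed the same direction at 1290, 914, 1641, 1120, 1225 and 1623 CPM against 0, 1.1, 0.8, 0, 8.1 and 0.7 CPM. It was higher in the precursors (edgeR adjusted p = 1.97e-09). No exact fold is given, because the level was 0 in some libraries of the non-cycling cells. UMIs of Elane were found in 39.6% of the precursors and 0.64% of the non-cycling cells, at median depths of 29703.5 and 17448 UMIs. When the rule was applied after each cell had been thinned to 5000 UMIs, which lets cells that lose their few Mki67 and Top2a UMIs join the other group, the log2 fold changes were 1.31 for Prss57 and 2.17 for Elane. Ms4a3, a membrane protein of granulocyte and monocyte progenitors (4.03 ± 0.23), and Cst7, which encodes the protease inhibitor cystatin F, were also higher. Cst7 stood at 0 to 2.7 CPM over libraries in the non-cycling cells, too low for an exact fold.

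Among regulators of the lineage, 5 of the 23 tested were higher and 16 lower. Cebpe stood at 67.7, 108, 55.5, 175, 202 and 186 CPM in the non-cycling cells, and was higher in the precursors of each library, with a log2 fold change of 1.02 ± 0.16 (edgeR adjusted p = 1.45e-04). Without the library block this call was lost (0.89, edgeR adjusted p = 0.0677), and Cebpe also differed between libraries in both populations. The higher genes included Gfi1, a repressor needed for neutrophil formation (1.80 ± 0.25), and Myb, a factor of dividing progenitors (1.13 ± 0.16). The lower genes included Klf4 and Irf8, factors of the monocyte lineage (-1.18 and -1.12), and the early response genes Egr1, Fosb and Junb (-1.06, -1.05 and -0.99). All 4 monocyte markers and all 5 macrophage markers, described below, were lower as well, with medians of -1.05 and -1.55. Their part in the lower regulators was not tested. The stem cell factor receptor Kit was higher at 1.40 ± 0.18. Chil3 stood at 2242, 2724, 2369, 3631, 3141 and 4146 CPM in the non-cycling cells and was higher in the precursors by 0.55 ± 0.12 (edgeR adjusted p = 0.00153). This call was lost when cells with at least 2 markers of another cell type were left out (0.25, edgeR adjusted p = 0.0821) and without the library block (0.49, edgeR adjusted p = 0.102).

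The genes that mark maturing neutrophils were lower in the precursors. All 17 genes of the mature neutrophil list and all 7 tested gelatinase granule genes were lower, with medians of -1.03 and -1.20. Retnlg stood at 2576, 4588, 1298, 1442, 3144 and 1876 CPM in the precursors and at 5524, 8172, 2593, 4313, 6776 and 4287 CPM in the non-cycling cells. The ranges over libraries overlapped, but each library was lower in the precursors, at a log2 fold change of -1.24 ± 0.11 (edgeR adjusted p = 1.19e-06). Ly6g, the surface antigen used to sort mouse neutrophils, stood at 196, 271, 183, 208, 294 and 273 CPM against 453, 518, 373, 815, 831 and 843 CPM. These did not overlap, at -1.50 ± 0.15 (edgeR adjusted p = 2.99e-06). Mmp9, which encodes gelatinase B (-1.70 ± 0.17), the formyl peptide receptor Fpr1 (-1.72 ± 0.13) and the chemokine receptor Cxcr2 (-1.03 ± 0.09) moved the same way. So did Il1b, the gene of interleukin-1β (-1.08 ± 0.09). Of 9 secondary granule genes outside the rule, 6 were lower and none higher, with Lcn2 at -0.44 ± 0.12 and Mmp8 at -1.55 ± 0.13, while Hp, Pglyrp1 and Orm1 did not pass. Without the library block, 2 of the 9 were lower, and Lcn2 (-0.53, edgeR adjusted p = 0.132) and Cd177 (-0.45, edgeR adjusted p = 0.129) were among those that lost their call. S100a8 and S100a9 did not pass the test (-0.10 ± 0.12 and -0.14 ± 0.12), but were lower when cells with at least 2 markers of another cell type were left out (-0.39 and -0.43, edgeR adjusted p = 0.0137 and 0.00598) and after thinning to 5000 UMIs (-0.22 and -0.27, edgeR adjusted p = 0.00826 and 0.00108).

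Outside the lists, the genes with the largest differences at 100 CPM or more in either population were of 2 kinds. Higher were Hist1h1b, Hist1h2ap and Hist1h2ae, which encode histones, Smc2 (a condensin), Kif15 (a mitotic kinesin), Lig1 (DNA ligase I), Cdca3 and the noncoding RNA Lockd. These are cell cycle genes, which the split by Mki67 and Top2a separates by construction. In the non-cycling cells they stood at 0.9 (Kif15) to 10.6 CPM (Hist1h2ap) pooled over libraries. Cdca3 was at 0 CPM there in library 1 and Lig1 in library 4. No exact folds are given for these genes. Lower were Acvrl1, Apoe, Lmna, Fpr2, Lgmn, Abca1, Slfn4 and Ctss, between -1.92 and -1.57. Apoe, Lgmn and Ctss are also abundant in macrophages. The 5 macrophage markers (C1qa, C1qb, C1qc, Mrc1 and Adgre1) were all lower in the precursors too, with a summed level of 129 CPM (35.2 to 858 over libraries) against 422 CPM (126 to 1864), and C1qb the most abundant. The 4 monocyte markers summed to 183 and 356 CPM. With cells that had at least 2 markers of another cell type left out, the 17 mature neutrophil genes and the 7 gelatinase genes were all lower.

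The second comparison set the precursors against dividing promyelocyte-type cells, so that both groups were cycling. The precursors had more of the oxidase genes of neutrophils, less of the protein-folding machinery of the endoplasmic reticulum, and a different set of cell cycle transcripts. Of 11421 genes tested, 8147 passed (71.3%), with 3739 higher (32.7% of those tested) and 4408 lower (38.6%). Scaling by library size alone moved the median of all genes by -0.610 on the log2 scale and the share of higher genes among those called from 45.9 to 20.7%, so a group is given a direction here with its count under both scalings. Library 3 had 10 promyelocyte-type cells, the fewest that were allowed. Mpo, Elane, Prtn3, Ctsg and the genes of the granule and Fcnb conditions chose the groups and were not tested as findings. Markers of other cell types differed as well. All 5 macrophage markers were higher in the precursors, with a summed level of 129 CPM (35.2 to 858 over libraries) against 41.2 CPM (6.86 to 53.7), and Adgre1 was the most abundant in the promyelocyte-type cells. With cells that had at least 2 markers of another cell type left out, all 6 oxidase genes were higher and all 15 secretory genes lower. In this comparison that setting also left out library 3, which then had under 10 promyelocyte-type cells, and thinning to 5000 UMIs left libraries 2, 4, 5 and 6. Of the 4 monocyte markers, which did not count in leaving out cells, Ccr2, F13a1 and Ms4a6c were lower in the precursors and Csf1r was not called. They summed to 183 CPM (38.4 to 520) against 1002 CPM (620 to 1303), with F13a1 the most abundant in the promyelocyte-type cells, and 13.7% of the precursors and 67.1% of the promyelocyte-type cells had UMIs of at least 2 of them.

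The granule condition split the groups by Ngp, Camp and Ltf, so genes that move with these differed by construction, and the 9 other secondary granule genes and Chil3 are given as a description. All 9 were higher in the precursors. Lcn2 stood at 8806, 9579, 7246, 12442, 11000 and 10345 CPM against 43.8, 80.5, 81.9, 30.9, 81.2 and 103 CPM, a log2 fold change of 7.79 ± 0.29. Chil3 stood at 76.6, 113, 272, 220, 171 and 300 CPM in the promyelocyte-type cells and was higher in the precursors by 5.34 ± 0.27. All 6 genes of the NADPH oxidase, which makes superoxide against microbes, were higher under both scalings. Within the precursors their sum also rose with the granule share, from 3938 CPM at 1 to 2% to 5718 CPM at 10% and over. Ly6g rose from 64.0 to 348 CPM between these. The part of the granule condition in their differences was not tested. Cybb, the catalytic subunit of the oxidase, stood at 1381, 1524, 1300, 1261, 1416 and 1598 CPM against 196, 170, 264, 154, 207 and 182 CPM (3.49 ± 0.13, edgeR adjusted p = 6.86e-09). Of 22 genes of surface receptors, 13 were higher, 5 lower (Cd34, Flt3, Itga4, Kit and Ly6c2) and 4 not called, or 10, 8 and 4 with library size alone. Kit lost its call after thinning to 5000 UMIs, in the 4 libraries left (-0.28, edgeR adjusted p = 0.432). Itgam, which encodes CD11b, was higher by 3.46 ± 0.14 on the log2 scale. Ly6g was higher too, but stood at 0 to 4.9 CPM over libraries in the promyelocyte-type cells, too low for an exact fold. Cebpe stood at 90.0, 99.7, 119, 189, 117 and 133 CPM in the promyelocyte-type cells and was 1.80 ± 0.13 higher in the precursors (edgeR adjusted p = 4.43e-07). Against this, Myc, Irf8 and Cebpa were lower (-4.12 ± 0.18, -3.42 ± 0.27 and -2.05 ± 0.16), as were Gfi1 and Myb (-1.33 ± 0.15 and -1.77 ± 0.10). The part of the higher monocyte markers of the promyelocyte-type cells in these values, and in that of Ly6c2, was not tested. Gfi1 and Myb were thus lower than in promyelocyte-type cells and higher than in the non-cycling cells. Of the 24 regulators tested, 11 were higher and 7 lower, or 8 and 10 with library size alone.

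All 15 genes of the secretory machinery were lower in the precursors under both scalings, with a median of -1.46. These genes encode chaperones and translocation factors of the endoplasmic reticulum, such as Calr (calreticulin), Hspa5 (BiP) and Sdf2l1. Calr stood at 121, 104, 273, 79.0, 85.8 and 130 CPM against 1020, 1119, 875, 1586, 1049 and 1664 CPM, with no overlap (-2.73 ± 0.24, edgeR adjusted p = 2.14e-06). Library 3 was the highest in the precursors and the lowest in the other group. The sum of the 15 genes was 1838 CPM in the precursors and 8835 CPM in the promyelocyte-type cells, and 1670 CPM in the non-cycling Fcnb-positive cells. Between the precursors and the last, 11 of the 15 genes did not pass the test. Within the precursors, the secretory sum fell from 5099 CPM at a granule share of 1 to 2% to 1240 CPM at 10% and over. Elane, which helped to set the promyelocyte-type cells, fell from 8628 to 66.7 CPM between these. The part of the azurophil and granule conditions in the secretory difference was not tested.

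**Figure D3:**
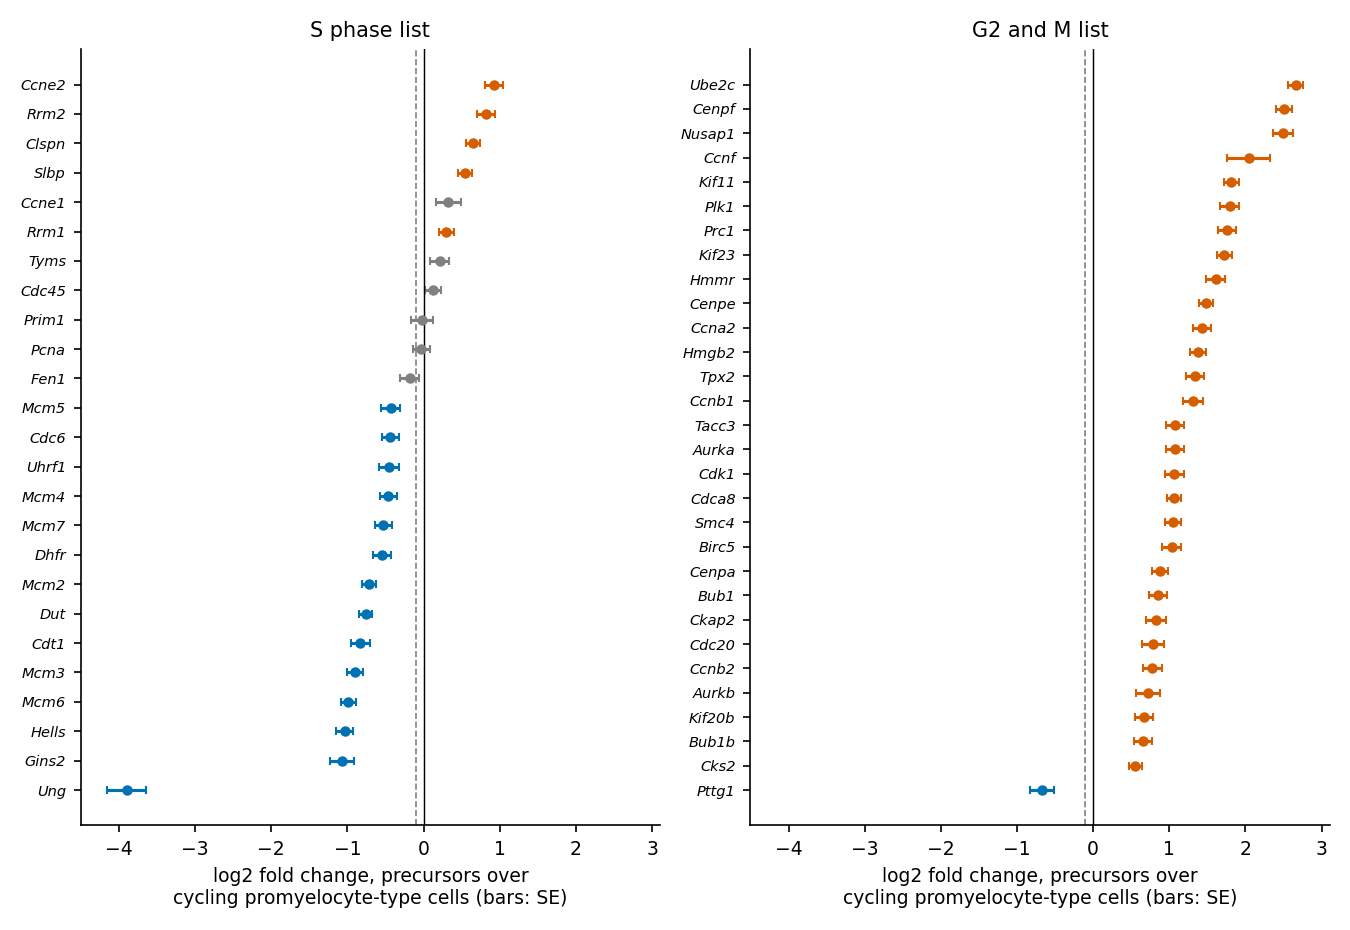
Log2 fold change with SE of genes of DNA replication and of the G2 phase and mitosis in cycling precursors against cycling promyelocyte-type cells (edgeR, 6 libraries). Orange marks genes that were higher, blue lower and grey not called at an adjusted p of 0.05, and the dashed line marks the median of all genes, -0.10. All but 1 of the tested mitotic genes lie to the higher side, and the replication genes spread to both sides.

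Among cell cycle transcripts, those of G2 and mitosis were higher in the precursors. Of 30 tested genes of these phases outside the rule, 29 were higher and 1 lower (Pttg1, which encodes securin), with a median of 1.07. With library size alone, 21 were higher and 1 lower. The median count of Mki67 and Top2a, which set the cycling condition, was 29 UMIs in the precursors and 10 in the promyelocyte-type cells. Within the precursors, the sum of the other mitotic genes rose with this count, as described below. The part of the unequal count in the mitotic differences was not tested. Ube2c, the ubiquitin-conjugating enzyme that works with the anaphase-promoting complex, stood at 202, 207, 172, 307, 289 and 290 CPM against 58.4, 46.1, 52.9, 78.2, 63.5 and 64.3 CPM. These did not overlap, at 2.66 ± 0.10 (edgeR adjusted p = 6.86e-09). Cenpf, a kinetochore protein (2.51 ± 0.11), and the mitotic kinase Plk1 (1.79 ± 0.13) were among the others. Replication genes moved in both directions. Of 25, 5 were higher, 14 lower and 6 not called, or 1, 20 and 4 with library size alone, 8, 12 and 5 without library 3, and 10, 11 and 4 when cells with markers of another cell type were left out along with that library. The 6 genes of the MCM helicase, which opens DNA at replication origins, were all lower, from -0.99 for Mcm6 to -0.43 for Mcm5. Mcm6 stood at 72.5, 62.0, 75.2, 78.3, 65.4 and 86.5 CPM against 229, 224, 256, 213, 194 and 221 CPM and did not overlap (edgeR adjusted p = 4.80e-06). Mcm5 lost its call when library 3 was left out (-0.22, edgeR adjusted p = 0.0642) and without both that library and the cells with other markers (-0.14, edgeR adjusted p = 0.146). Rrm2, the ribonucleotide reductase subunit made in S phase, was higher (0.83 ± 0.12), while Pcna, the polymerase clamp, did not pass (-0.03 ± 0.11). Pcna was at 0.19 without library 3 (edgeR adjusted p = 0.0757), higher without both that library and the cells with other markers (0.29, edgeR adjusted p = 0.0023) and lower with library size alone (-0.64, edgeR adjusted p = 0.000177).

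The kinases and D-type cyclins that take cells from G1 into S phase differed as well. Of 22 regulators of the cycle, 14 were higher, 5 lower (Ccnd1, Ccnd2, Cdk4, Cdk6 and E2f4) and 3 not called. This count is given with the scaling of the main test only, so the list is given no direction. Cdk6, a G1 kinase, stood at 59.3, 53.4, 118, 33.1, 51.3 and 70.8 CPM in the precursors and at 483, 601, 497, 349, 486 and 597 CPM in the promyelocyte-type cells, a change of -2.48 ± 0.14 (edgeR adjusted p = 8.55e-08). Cdk4, the related kinase, was also lower (-2.42 ± 0.08). Cyclins that activate these kinases differed in direction. Ccnd2 stood at 6.9, 7.1, 16.1, 0.8, 4.6 and 4.2 CPM against 96.0, 110, 55.5, 39.8, 74.2 and 87.0 CPM (-3.36 ± 0.25, edgeR adjusted p = 4.71e-07). Ccnd3 stood at 235, 222, 203, 297, 282 and 306 CPM against 133, 102, 182, 138, 126 and 135 CPM (1.58 ± 0.14, edgeR adjusted p = 2.19e-06). Neither overlapped between the groups, and both kept their direction with library size alone. The cell cycle inhibitors Cdkn2d and Cdkn1b were higher (2.25 ± 0.10 and 1.22 ± 0.12).

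A further comparison, used only for cell cycle genes, set the precursors against 3628 other cycling cells. These had under 0.5% of UMIs from the 3 granule genes and from the 4 azurophil genes. Fcnb reached 38 UMIs in them, so the rule did not leave out early cells of the neutrophil lineage. Ccnd2 was lower there too (70.8 CPM pooled against 5.0, -2.97 ± 0.25), as were Cdk4 (-1.33 ± 0.09) and Cdk6 (-1.25 ± 0.13). Of 22 regulators of the cycle, 13 were higher and 5 lower, and of 13458 genes tested 67.8% passed (27.1% higher and 40.7% lower). The count of regulators is given with the scaling of the main test only, so that list is given no direction. Ccnd3 was higher by 0.84 ± 0.13, but not with library size alone (0.05, edgeR adjusted p = 0.716). Of the 30 mitotic genes, 22 were higher and 1 lower, but with library size alone 3 were higher and 12 lower. For replication genes these counts were 11 and 1, and 2 and 20. The median of all genes moved by -0.804 between the scalings and the share of higher genes among those called from 40.0 to 10.8%. Neither the mitotic nor the replication list therefore has a direction here that held under both.

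Outside the lists, the genes most above the promyelocyte-type cells were St3gal5 (a sialyltransferase that makes ganglioside GM3), Itgb2l, AA467197, Plbd1, Ifitm6, Ipcef1, Slfn4 and Antxr2. St3gal5, AA467197 and Ipcef1 were at 0 CPM in at least 1 library of the promyelocyte-type cells. Itgb2l, Plbd1 and Slfn4 were as low as 0.7, 1.2 and 0.7 CPM there. No exact fold is given for these genes. The log2 fold changes of Ifitm6 and Antxr2 were 5.75 and 4.71. Ifitm6 was the most abundant, at 1121 against 28.9 CPM. The genes most below the promyelocyte-type cells were Gria3, BC035044, Srm, Phgdh, Kcnq5, C1qbp, Bzw2 and Gnl3. BC035044 and Kcnq5 were at 0 CPM in library 4 of the precursors, too low for an exact fold. The others were between -4.92 and -3.45 on the log2 scale, at low levels in the precursors. Srm (spermidine synthase), Phgdh (the first enzyme of serine synthesis) and Gnl3 (nucleostemin, a nucleolar protein) stood at 4.1, 5.6 and 5.9 CPM in the precursors and at 140, 171 and 103 CPM in the promyelocyte-type cells.

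The precursors were not uniform. Their granule share ran from 1.01 to 29.7% of UMIs, and those with the lowest share had the most azurophil transcripts and Cdk6. The share chose the members, so the trend along it is a description. Between 1 and 2% were 43 members, between 2 and 5% 198, between 5 and 10% 1182, and at 10% or over 429, and levels were pooled over libraries. Elane stood at 8628, 4727, 736 and 66.7 CPM in these bins, and Mpo at 3787, 1838, 169 and 10.1 CPM. Lcn2 ran the other way at 1587, 4081, 10840 and 14535 CPM, and Chil3 at 975, 2345, 4904 and 7004 CPM. Fcnb changed less, from 1370 to 1256, 1016 and 889 CPM, and Cebpe stood at 337, 270, 308 and 366 CPM with no steady trend. Cdk6 fell from 212 to 123, 47.6 and 31.3 CPM and Ccnd2 from 23.8 to 12.1, 4.2 and 0.6 CPM, while Ccnd3 stood between 222 and 282 CPM. The order of the first pair of bins did not hold over libraries for Ccnd2, which stood at 15.7 and 17.1 CPM in the 2 libraries with at least 10 members in the first bin and at 5.9 to 19.0 CPM in the 3 with as many in the next. The summed level of the 25 replication genes ran from 2475 to 2210, 1771 and 1427 CPM. That of the 30 mitotic genes other than Mki67 and Top2a ran from 4655 to 5476, 6829 and 8309 CPM. For the replication genes, the ranges over libraries with at least 10 members overlapped in the last 3 bins (1432 to 2669, 1475 to 2118 and 1276 to 1852 CPM). The 15 secretory genes ran from 5099 to 3618, 1559 and 1240 CPM. With Ngp, Camp and Ltf left out of the totals, the order of the bins was the same for Elane, Mpo, Lcn2 and Chil3. Summed macrophage markers stood at 279, 338, 121 and 1.9 CPM and monocyte markers at 543, 739, 118 and 4.9 CPM in these bins, and their part in the trends was not tested.

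**Figure D4:**
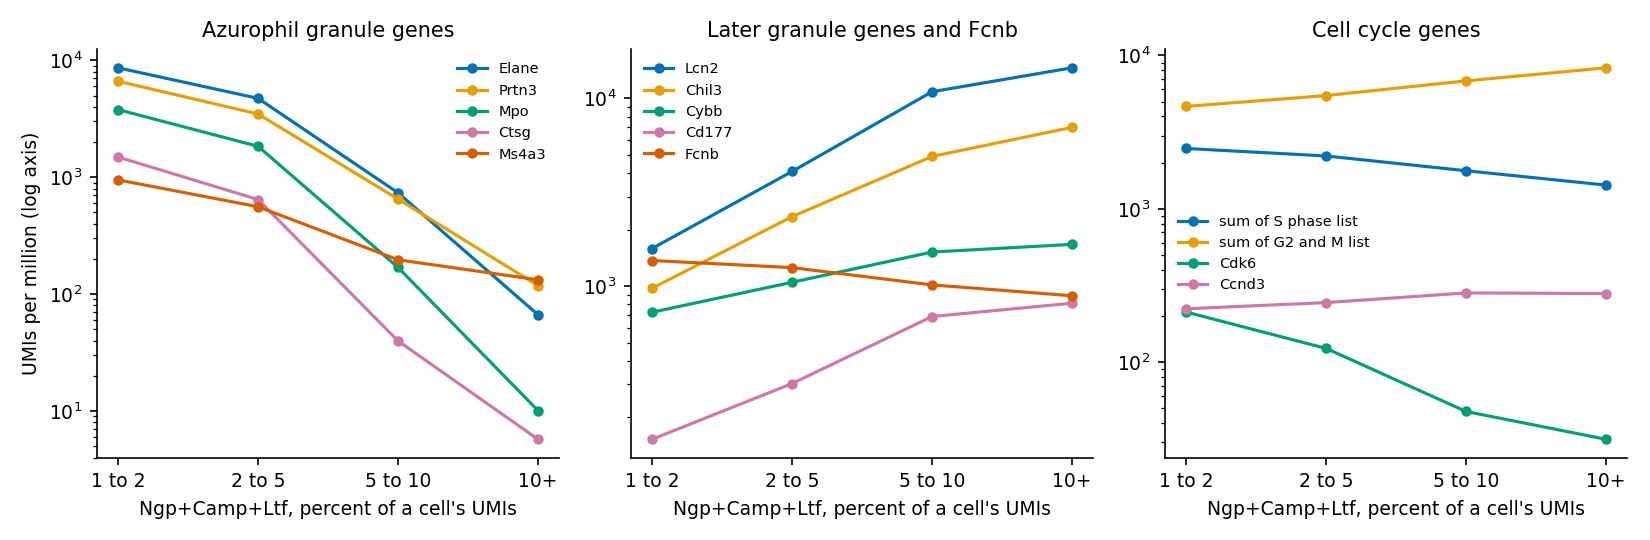
Levels in the 1852 precursors (y axis, CPM, log scale) by the share of Ngp, Camp and Ltf in a cell (x axis, 4 bins, percent of UMIs), pooled over libraries. Azurophil genes fall by bin, Lcn2, Chil3, Cybb and Cd177 rise, and Fcnb falls from 1370 to 889 CPM. Cdk6 and the summed replication genes fall while the summed mitotic genes rise.

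Abundant azurophil transcripts were found in a minority of the precursors. In 257 (13.9%, interval 12.4 to 15.5%) they made up at least 0.5% of the UMIs, and 758 (40.9%) had no UMI of Mpo, Elane, Prtn3 or Ctsg. The first share was 12.99%, 8.75%, 17.9%, 12.1%, 13.01% and 17.4% in libraries 1 to 6. The median granule share was 4.72% in these 257 members and 8.88% in the others. Of the 241 members with a granule share under 5%, 138 had at least 0.5% azurophil transcripts. These had 2068 CPM of Fcnb, 419 of Cebpe and 214 of Cdk6, and 2.90% of them carried at least 2 markers of another cell type. The other 103 had 344 CPM of Fcnb, 119 of Cebpe and 1410 of Il1b, and 43.7% carried such markers, with a summed level of the macrophage markers of 703 CPM. Monocyte markers, which were not used to mark cells of another type, summed to 1347 CPM in these 103, compared with 160, 36.9 and 97.5 CPM in the 138 just named and in the members of higher granule share with at least 0.5% and with under 0.5% azurophil transcripts. Among members of low granule share, Fcnb and Cebpe were thus low where azurophil transcripts were scarce, and markers of other cell types were most frequent there. The part of that RNA in the low values was not tested. Among members with a granule share of 5% or more, Fcnb stood at 2275 CPM in the 119 with at least 0.5% azurophil transcripts and at 869 CPM in the 1492 with less, of which 715 had none.

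**Figure D5:**
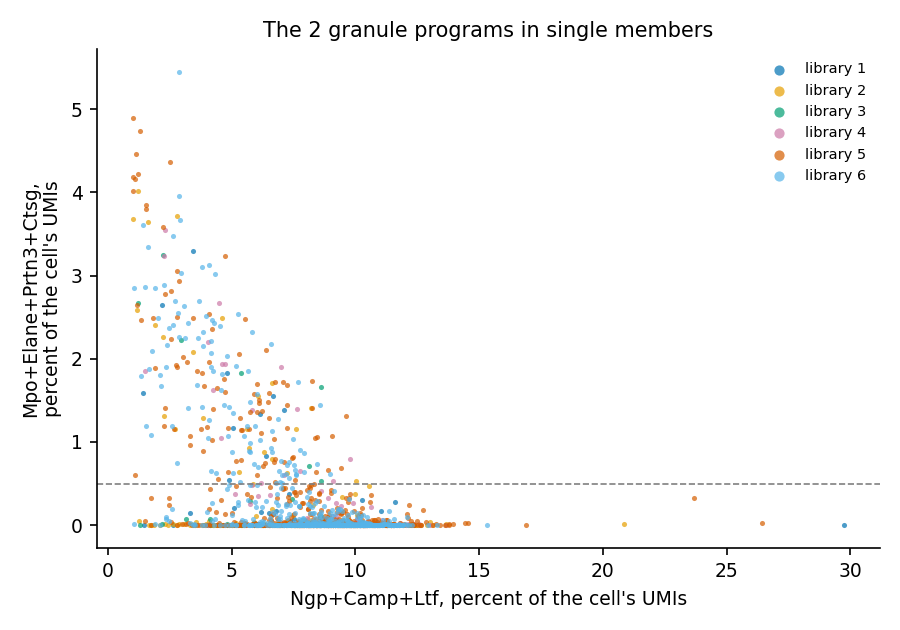
Share of azurophil transcripts (Mpo, Elane, Prtn3 and Ctsg, y axis, percent of UMIs) against the share of Ngp, Camp and Ltf (x axis, percent of UMIs) in each of 1852 precursors. The dashed line marks 0.5%, at or above which lie 257 members, 138 with a granule share under 5% and 119 with 5% or more.

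Members also differed by their level of Mki67 and Top2a, which chose them. By 2 to 5, 6 to 20, 21 to 50 and 51 or more UMIs there were 216, 444, 880 and 312 members. The mitotic sum, with Mki67 and Top2a left out, rose along these bins from 3093 to 5098, 7496 and 8721 CPM. Mitotic genes move with these 2 genes, so the rise is a description. The replication sum stood at 863, 2000, 1876 and 1717 CPM and was lowest in the first bin. Retnlg stood at 4592, 2984, 2649 and 2256 CPM pooled over libraries, but its ranges over libraries overlapped (1390 to 5702 CPM in the first bin and 1627 to 3249 in the last), and Cdk6 stood between 52.8 and 71.0 CPM. Summed macrophage markers stood at 253, 184, 122 and 44.6 CPM and monocyte markers at 376, 167, 142 and 209 CPM, and their part in these values was not tested. The median depth rose over the bins from 22832 to 40710 UMIs, so a higher count of Mki67 and Top2a also marked deeper cells.

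Markers of other lineages were looked for in all members. At least 2 of the 5 macrophage markers were found in 107 members (5.78%), at least 2 of 4 monocyte markers in 254 (13.7%), and at least 2 of 6 B cell markers in 43 (2.32%). Erythroid markers were found in 10 members (0.540%), which held all of their 6794 UMIs, mostly from library 6 (375 CPM summed there, at most 2.2 CPM in any other). The higher level of Hbb-bs against the non-cycling cells (8.33) therefore rested on at most 10 cells. Nkg7, listed as a marker of NK cells, stood at 111 CPM in the precursors and 628 CPM in the promyelocyte-type cells, and at least 2 of 3 NK markers were found in 3 members. Its log2 fold change was -1.89 ± 0.12 against promyelocyte-type cells and 4.53 ± 0.23 against the non-cycling cells. Epx, the peroxidase of eosinophils, had no UMI. With the 161 members that had at least 2 markers of B cells, T cells, macrophages, erythroid cells, fibroblasts or megakaryocytes left out, and such cells left out of the other groups, 6273 genes passed in the first comparison and 8739 in the second, where 5 libraries had enough promyelocyte-type cells.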

How the data were processed

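Per the labels and methods of the study, CD45+ cells of digested joints were sequenced with the Chromium 3′ kit and aligned to mm10 with Cell Ranger 7. The authors removed ambient RNA with SoupX, doublets with DoubletFinder and cells outside their limits with Seurat, and deposited whole UMI counts, not scaled for depth, for 20394 genes and 32953 cells in 6 libraries of 47273569 to 123367661 UMIs. Entries that the ambient correction lowered can bias weak genes, and no further doublet filter was applied. The rule was applied to these counts, and UMIs were summed per library and population. CPM are UMIs of a gene per 1000000 UMIs of the population.

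Sums of populations with at least 10 cells in a library were compared with the quasi-likelihood test of edgeR 4.0.16 (R 4.3.3; filterByExpr, TMM scaling, library as a block), with Benjamini-Hochberg adjustment over all genes tested. With libraries as blocks, p-values measure the spread between 6 libraries, and both populations of a library share its preparation. Alternatives were DESeq2 1.42.0, no filter, no block, thinning to 5000 UMIs, leaving out Ngp, Camp and Ltf, leaving out each library, and, added after the data had been seen, library size alone and leaving out cells with markers of another cell type. The pipeline was tested on simulated data. Members and gene lists were chosen with earlier results of these data known. Genes outside the lists are the 8 in each direction with the largest change among those called, at 100 CPM or more in the higher population and with the same direction in every library, without mitochondrial, ribosomal, immunoglobulin and predicted genes. Acod1, Cebpd, H2ax and H2az1 were not analysed here under these symbols. Promoters are from RefSeq.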

Additional observations from a re-analysis of the deposited data

How the results depend on the processing

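No paired analysis was possible because the barcodes carry library numbers and not the replicate numbers of the labels, so samples could not be paired across treatments, while populations were compared within libraries, with the library as a block. The share of precursors was 6.28% with at least 1 UMI of Mki67 and Top2a, 4.89% with a granule share of at least 5%, 6.07% without a condition on Fcnb, 4.96% after thinning to 5000 UMIs and 4.03% as the median over libraries, and leaving out each library gave 4.75 to 6.04%. Thinning left 3616 genes called against the non-cycling cells (1767 higher, 1849 lower), 4231 against promyelocyte-type cells (2161 and 2070, in 4 libraries) and 5714 against other cycling cells (1978 higher), with fewer genes tested. Library size alone gave 1818 higher and 6944 lower genes against promyelocyte-type cells, and 1236 and 10229 against other cycling cells. Leaving out each library gave 5488 to 6343 genes called in the first comparison (2773 to 3290 higher, 2708 to 3173 lower), 6984 to 8477 in the second (3303 to 4355 and 3681 to 4483) and 7773 to 9159 in the third (3176 to 4287 and 4597 to 5473).

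Of 702 values of named genes under alternatives, 665 kept their direction and side of the threshold, 16 lost the call, 10 gained it and 11 changed sign. The sign changed for S100a8 against the non-cycling cells (0.0024 with library size alone, 0.0055 with no filter) and for Pcna against promyelocyte-type cells (0.0061 with DESeq2, 0.055 without Ngp, Camp and Ltf, 0.29 without cells with other markers and library 3, and leaving out each library gave -0.096 to 0.19). Against other cycling cells it changed for Mcm5 (-0.41), Pcna (-0.70) and Ccnb1 (-0.43) with library size alone, and for Pcna (-0.047) and Ccnb1 (-0.078) after thinning. The cause was not tested.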
